A study of Mus musculus with 8 samples.

Results

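The genes described here are 36 genes of cell proliferation and mitosis, 11 of which act mainly in S phase and 25 mainly in mitosis, measured in the hippocampus of adult male Muta Mouse animals. They were taken from a fixed list of symbols and found on the array through the RefSeq accession given for each probe. All 36 had a probe, among 20660 named genes on the array. Of the 36, 30 had a probe bright enough to be tested, among 15090 tested genes in all, and 6 did not. The 4 control mice received olive oil alone. The 4 BaP mice received benzo[a]pyrene (BaP), a polycyclic aromatic hydrocarbon, in olive oil at 70 mg/kg bw per day. Both groups were dosed by gavage for 3 days, and tissue was taken 24 hr after the last dose. Each array compared the RNA of 1 mouse, labeled with Cy5, with universal mouse reference RNA in Cy3, and no dyes were swapped.

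A dividing cell copies its DNA in S phase and separates the copies in mitosis. Genes for S phase, such as those for the MCM helicase and for nucleotide synthesis, are switched on by E2F factors as the cell leaves G1. Mitotic genes are held down in resting cells by the DREAM complex at CHR elements of their promoters and are switched on in G2, with B-MYB and FOXM1. In the adult hippocampus most cells are neurons that no longer divide. Division is found mainly in the neural progenitors of the dentate gyrus and in oligodendrocyte precursors, microglia and endothelial cells, so that transcripts of mitosis come from a small share of the tissue. In bulk tissue, fewer dividing cells and less RNA per dividing cell cannot be told apart.

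Promoter sequences show how the listed genes fall into these classes. RefSeq promoters of the mouse assembly GRCm38.p6, which run from 250 bases before to 50 bases after an annotated start, were at hand for 9 of the 11 S phase genes and 20 of the 25 mitotic genes. The window of *E2f1* (chr2:154569377-154569676, minus strand) lay wholly inside the gene, which starts at 154569892, so its upstream promoter was not searched. *E2f1* is still counted among the 9, without an E2F motif. On either strand, the E2F motifs TTTCCCGC or TTTGGCGC were in the promoters of 4 of the 9 S phase genes (44.4%) and 0 of the 20 mitotic genes, against 1.8% of 27025 genes with a promoter. The CHR motifs TTTGAA or TTCGAA were in promoters of 2 of the 9 S phase genes (22.2%) and 16 of the 20 mitotic genes (80.0%), against 21.7% of all genes. A CCAAT box, which often lies near a CHR element, was in promoters of 66.7% and 90.0% of these genes, against 41.1% of all genes. The promoters of *Ccnb2*, *Cdc20* and *Prc1* are shown because these mitotic genes are among those whose groups of mice did not overlap, and those of *Mcm3* and *Mcm6* because they hold E2F motifs, with capitals at every E2F, CHR and CCAAT match. They lie at chr9:70421505-70421804 (minus strand), chr4:118437294-118437593 (minus strand), chr7:80294201-80294500 (plus strand), chr1:20820263-20820562 (minus strand) and chr1:128359656-128359955 (minus strand), in that order, and are written 5′ to 3′.
Ccnb2: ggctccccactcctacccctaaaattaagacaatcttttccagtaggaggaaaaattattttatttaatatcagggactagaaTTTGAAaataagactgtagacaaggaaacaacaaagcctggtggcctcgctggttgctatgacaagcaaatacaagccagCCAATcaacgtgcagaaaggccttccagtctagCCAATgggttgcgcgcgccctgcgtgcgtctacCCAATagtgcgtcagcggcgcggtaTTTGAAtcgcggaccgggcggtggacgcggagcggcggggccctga
Cdc20: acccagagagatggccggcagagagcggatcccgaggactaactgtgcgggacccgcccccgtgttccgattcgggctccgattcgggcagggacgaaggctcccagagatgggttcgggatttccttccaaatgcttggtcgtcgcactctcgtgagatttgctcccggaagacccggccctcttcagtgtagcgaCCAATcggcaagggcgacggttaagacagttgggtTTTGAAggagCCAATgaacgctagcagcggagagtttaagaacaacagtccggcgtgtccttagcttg
Prc1: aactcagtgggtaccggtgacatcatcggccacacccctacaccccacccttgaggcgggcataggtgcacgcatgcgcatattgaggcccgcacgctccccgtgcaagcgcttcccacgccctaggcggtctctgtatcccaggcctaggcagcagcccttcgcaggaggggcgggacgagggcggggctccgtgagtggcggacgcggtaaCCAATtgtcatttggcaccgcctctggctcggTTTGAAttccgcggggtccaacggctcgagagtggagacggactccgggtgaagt
Mcm3: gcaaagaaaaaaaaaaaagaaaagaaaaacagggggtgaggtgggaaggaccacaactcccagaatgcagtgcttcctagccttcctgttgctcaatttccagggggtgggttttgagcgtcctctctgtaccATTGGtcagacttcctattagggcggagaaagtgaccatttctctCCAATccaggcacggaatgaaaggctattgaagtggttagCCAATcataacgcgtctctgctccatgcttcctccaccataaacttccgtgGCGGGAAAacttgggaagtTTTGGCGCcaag
Mcm6: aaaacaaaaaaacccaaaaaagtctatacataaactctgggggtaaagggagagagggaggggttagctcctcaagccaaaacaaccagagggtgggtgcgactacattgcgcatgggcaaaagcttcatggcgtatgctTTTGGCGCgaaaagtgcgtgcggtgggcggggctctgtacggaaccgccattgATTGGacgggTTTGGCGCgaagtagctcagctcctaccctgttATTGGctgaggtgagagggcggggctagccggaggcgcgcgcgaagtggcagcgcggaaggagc
*Ccnb2* held 2 CHR and 3 CCAAT matches, *Cdc20* held 1 and 2, and *Prc1* held 1 of each. *Mcm3* and *Mcm6* each held 2 E2F matches and no CHR match. The promoter of *Birc5* held none of these motifs in this window. A match of letters is a description of the sequence and not a measured binding site.

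The arrays and their labels set the limits of the comparison. Median Cy5 signals ran from 108 to 174 units between arrays, above backgrounds of 67 to 71 units, and outlier spots numbered 1483 for control mouse 1 and 310 to 371 for the others. For 4 of the 8 arrays, those of control mice 3 and 4 and BaP mice 3 and 4, the title and the source name of the sample give opposite groups. The titles were followed, since the numbering of the mice follows them, and the results are also given with the source names and with the other 4 arrays alone. All 12 markers of hippocampal neurons, among them *Camk2a*, were well above background on all 8 arrays, as were 11 of 12 markers of choroid plexus. Detection alone does not test the hippocampal label, and no other brain region was measured.

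In control hippocampus the proliferation genes stood far below the reference RNA, a commercial pool of RNA from mouse cell lines. Among the 30 tested genes, the mean log2 ratio of hippocampus over reference in the 4 control mice ran from -5.80 for *Mki67* to -0.55 for *Ccne1*. *Mki67*, which encodes the proliferation antigen Ki-67, had log2 ratios of -5.91, -5.66, -5.89 and -5.75 in control mice 1 to 4. *Rrm2*, a subunit of ribonucleotide reductase, had a control mean of -5.48 ± 0.25 (SD, n = 4), and *Birc5*, which encodes the chromosomal passenger protein survivin, one of -5.37 ± 0.14 (SD, n = 4). Nearest to the reference were *Ccne1*, which encodes cyclin E1, *Hmmr*, a spindle-associated hyaluronan receptor, at -0.90 ± 0.11 (SD, n = 4), and *Tyms*, thymidylate synthase, at -0.96 ± 0.25 (SD, n = 4). These ratios depend on the reference as much as on the hippocampus and do not rank the transcripts by abundance.

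**Figure D1:**
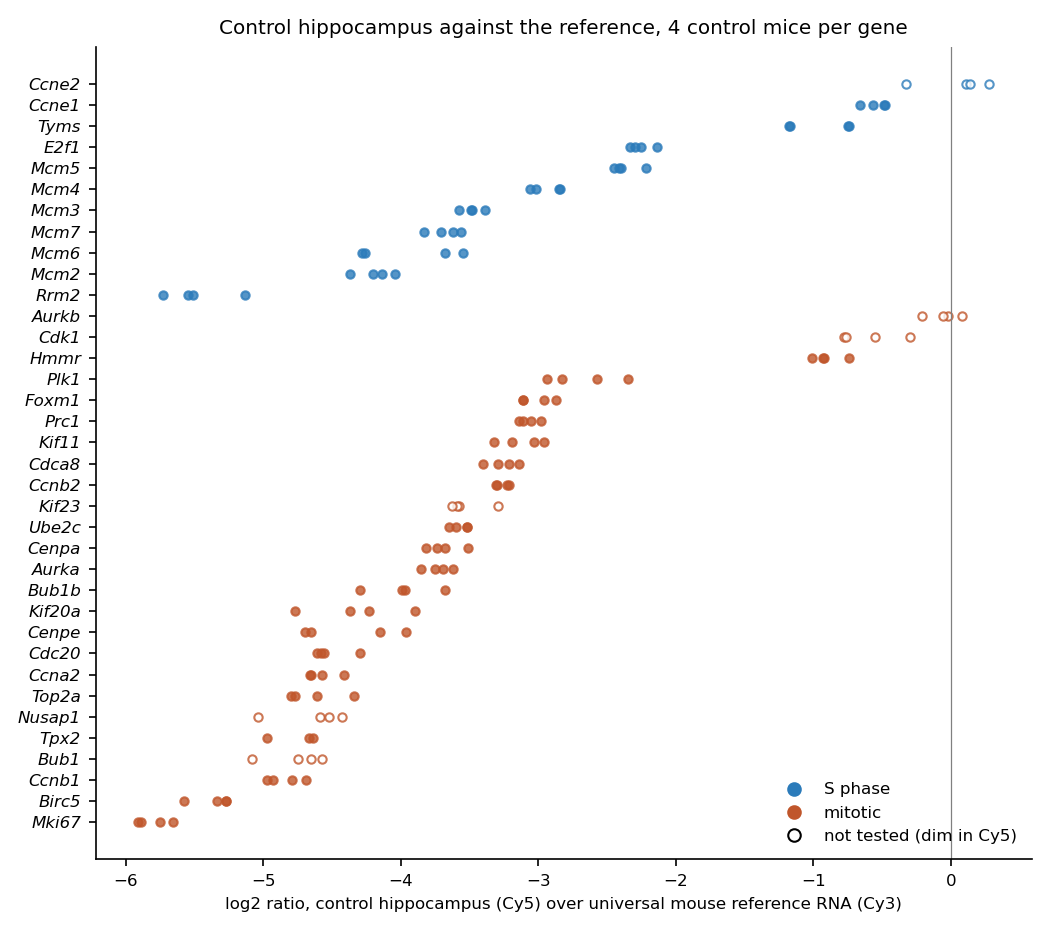
Log2 ratio of control hippocampus (Cy5) over reference RNA (Cy3) on the horizontal axis for each of the 36 proliferation genes, with 1 point for each of the 4 control mice (*Tpx2* lacks mouse 1) and open points for the 6 genes that were not tested. Most genes lie between -5 and -2, and *Mki67* has the lowest mean, -5.80.

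Of the 36 genes, 6 could not be compared between the groups, because fewer than 4 of the 8 arrays showed any of their probes well above background in Cy5. *Ccne2*, which encodes cyclin E2, and *Aurkb*, the catalytic subunit of the chromosomal passenger complex, were not well above background in either channel on any array. *Bub1*, a spindle checkpoint kinase, *Kif23*, a kinesin of the central spindle, and *Nusap1*, a spindle protein, were measured in the reference but hardly in the hippocampus. Their Cy3 signals over background had medians of 2390, 1220 and 2970 units, and their Cy5 signals 8.40, 21.8 and 24.8 units. *Cdk1*, the kinase that drives entry into mitosis, had 3 probes, none of which was bright enough. Its brightest probe gave Cy5 signals over background of 59, 21, 43 and 17.5 units in control mice 1 to 4 and of 35, 13.5, 42 and 29 units in BaP mice 1 to 4. The groups overlapped, and this probe was well above background on 1 of the 8 arrays. No fold change is given for these 6 genes. Of the 30 tested genes, *Bub1b*, a checkpoint kinase, was well above background on 6 arrays, 3 of each group. *Kif11*, the kinesin that pushes spindle poles apart, was so on 5 arrays, 1 of control and 4 of BaP mice, so that it was tested through the BaP group. The remaining 28 were so on all 8. No probe of a listed gene was saturated.

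By the loess-normalized ratio, mitotic genes were lower in BaP mice by small amounts, none passed the test, and the direction did not hold with median centring or with the source names. Of 20 tested mitotic genes, 19 were lower in BaP mice and 1 was higher. The median of their log2 fold changes was -0.20, which turned to 0.07 when arrays were centred on the median without loess, where the median of all tested genes was itself 0.21, and to 0.02 when mice were grouped by source name. Of the 10 tested S phase genes, 8 were lower and 2 higher, with a median of -0.08, which became 0.18 with median centring. Relative to all genes under median centring, the medians were -0.14 for mitotic genes, with 19 of 20 below the median of all genes, and -0.03 for S phase genes, with 7 of 10. Over all 30 genes, 27 (90.0%) had a log2 fold change below 0, against 50% of the 15090 tested genes, although 4 of 30 were below 0 with median centring, against 11.9% of all genes, and 15 of 30 with the source names, against 51.3%. In the Cy5 channel alone, 22 of 30 were below 0, against 44.7%.

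After Benjamini-Hochberg adjustment of limma's moderated test over all 32600 tested probes, 0 of the 30 genes passed an adjusted p of 0.05, where 3 of the 15090 genes (0.0199%) did so with a change of at least 1.5-fold. The lowest adjusted p among the 30 was 0.465. At an unadjusted p under 0.05 there were 8 of 30, against 9.44% of all tested genes. This count fell to 4 in the Cy5 channel alone, against 8.24% of all genes, to 1 with the source names, against 4.49%, and to 1 with median centring, against 22.8%. The gene-wise F test also called 0, with 8 at an unadjusted p under 0.05, and no gene of the list reached 1.5-fold, which is 0.585 on the log2 scale. In 6 mitotic genes every BaP mouse was below every control mouse, against 2.56% of tested genes that did not overlap in this direction, but this held for 2 mitotic genes in the Cy5 channel alone, against 1.69%, and for 0 with the source names, against 0.895%, or with median centring, against 0.186%. No S phase gene was without overlap, and no listed gene was without overlap in the higher direction, against 2.72% of tested genes. With 4 mice against 4 the smallest exact permutation p is 0.0286 (2-sided, 70 assignments). Each of the 6 genes had this p, which follows from the lack of overlap and adds nothing to it.

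*Birc5* had the largest difference of the mitotic genes. Its log2 ratios were -5.58, -5.27, -5.34 and -5.27 in control mice 1 to 4 and -5.76, -5.73, -6.01 and -5.65 in BaP mice 1 to 4. Control mouse 1 was closest to the BaP mice, and BaP mouse 3 was the lowest of all. The log2 fold change was -0.42 (with its standard error, SE, 0.10, and limma adjusted p = 0.465), a 1.34-fold lower ratio. A further tested probe of *Birc5* also did not overlap between the groups, with a log2 fold change of -0.26 (SE 0.09).

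*Cdc20*, the activator of the anaphase-promoting complex, had log2 ratios of -4.30, -4.61, -4.56 and -4.58 in control mice and of -4.88, -4.85, -4.80 and -4.85 in BaP mice. The BaP mice lay within a narrow range, and control mouse 1 stood above the other control mice. The log2 fold change was -0.33 (SE 0.09, limma adjusted p = 0.478). *Foxm1*, the transcription factor of the G2 and M program, had log2 ratios of -2.96, -3.11, -3.11 and -2.87 in control mice and of -3.37, -3.19, -3.30 and -3.26 in BaP mice. The groups were separated by the gap between control mice 2 and 3 and BaP mouse 2, and the log2 fold change was -0.27 (SE 0.09, limma adjusted p = 0.498). In the Cy5 channel alone it was -0.12 (SE 0.11).

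*Prc1*, which bundles microtubules of the central spindle, had log2 ratios of -2.98, -3.11, -3.14 and -3.05 in control mice and of -3.43, -3.32, -3.28 and -3.26 in BaP mice. Here too no BaP mouse reached the lowest control mouse, and the log2 fold change was -0.25 (SE 0.08, limma adjusted p = 0.498). Of the cyclins that drive S phase, G2 and mitosis, *Ccna2*, which encodes cyclin A2, had log2 ratios of -4.66, -4.57, -4.65 and -4.41 in control mice and of -4.85, -4.73, -4.89 and -4.81 in BaP mice. *Ccnb2*, which encodes cyclin B2, had log2 ratios of -3.21, -3.23, -3.31 and -3.30 in control mice and of -3.50, -3.48, -3.56 and -3.46 in BaP mice. Both were without overlap, with log2 fold changes of -0.25 (SE 0.08, limma adjusted p = 0.510) and -0.24 (SE 0.07, limma adjusted p = 0.496), and *Ccnb2* had an SD of 0.05 in control mice and 0.04 in BaP mice. *Ccnb1*, which encodes cyclin B1, overlapped between the groups, with a log2 fold change of -0.13 (SE 0.10), which became -0.06 without BaP mouse 3 and -0.07 without control mouse 4.

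**Figure D2:**
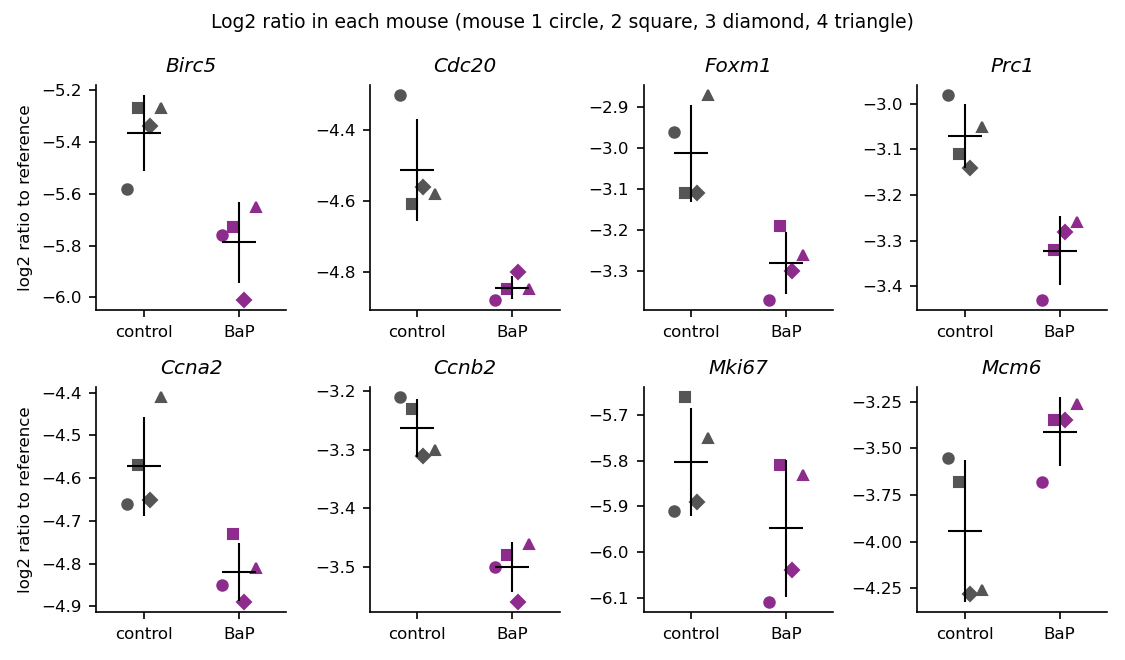
Log2 ratio of hippocampus over reference (vertical axes, which differ between panels and do not start at 0) in each control mouse (grey) and BaP mouse (purple) for 8 genes, with the mean (horizontal line) and SD (vertical line, n = 4). In *Birc5*, *Cdc20*, *Foxm1*, *Prc1*, *Ccna2* and *Ccnb2* the BaP mice lie below all control mice, whereas *Mki67* and *Mcm6* overlap. With arrays centred on the median without loess all these 6 genes overlapped. There *Prc1*, *Ccna2* and *Ccnb2* were higher in BaP mice, at 0.04, 0.03 and 0.04, and *Birc5*, *Cdc20* and *Foxm1* were at -0.13, -0.05 and -0.01. The median of all tested genes was 0.21 in that setting.

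The most used proliferation markers overlapped between the groups. *Mki67* had log2 ratios of -6.11, -5.81, -6.04 and -5.83 in BaP mice against the control values given above, so that BaP mice 2 and 4 lay among the control mice. Its log2 fold change was -0.15 (SE 0.10, limma adjusted p = 0.679), and a further probe gave -0.25 (SE 0.13). It became -0.09 without BaP mouse 1 and -0.04 in the Cy5 channel alone. *Top2a*, the topoisomerase that untangles DNA before chromosome separation, had log2 ratios of -4.61, -4.80, -4.77 and -4.34 in control mice and of -4.88, -4.71, -5.09 and -4.78 in BaP mice. With BaP mouse 2 above control mice 2 and 3, and BaP mouse 4 above control mouse 2, the groups overlapped, and the log2 fold change was -0.23 (SE 0.12, limma adjusted p = 0.605), or -0.14 without control mouse 4.

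For the other mitotic genes the groups overlapped. *Kif20a*, a kinesin of cytokinesis, had log2 ratios of -3.90, -4.37, -4.77 and -4.23 in control mice and of -4.52, -4.44, -4.82 and -4.57 in BaP mice. Control mouse 3 lay among the BaP mice, and the log2 fold change was -0.27 (SE 0.17), which became -0.13 without control mouse 1 and -0.43 without control mouse 3. It was -0.09 in the Cy5 channel alone and -0.45 with the scanner's own ratio. *Cenpe*, a kinesin of the kinetochore, had a log2 fold change of -0.26 (SE 0.19), or -0.12 without control mouse 2. *Cdca8*, which encodes the passenger protein borealin, had one of -0.21 (SE 0.09, limma adjusted p = 0.539). Smaller differences, from -0.19 to -0.09, were measured for *Hmmr*, the kinase *Aurka*, the ubiquitin-conjugating enzyme *Ube2c*, the spindle protein *Tpx2*, *Kif11*, *Bub1b* and the centromeric histone *Cenpa*. With each mouse left out, *Hmmr* ran from -0.26 to -0.13, *Aurka* from -0.23 to -0.10 (without BaP mouse 3) and *Ube2c* from -0.26 (without BaP mouse 2) to -0.10 (without BaP mouse 3). *Tpx2* ran from -0.26 (without control mouse 3) to -0.10 (without control mouse 4 or BaP mouse 3), *Kif11* from -0.17 (without control mouse 3 or BaP mouse 2) to -0.04 (without control mouse 4 or BaP mouse 1) and *Cenpa* from -0.13 to -0.03 (without control mouse 1). *Bub1b* ran from -0.19 (without control mouse 3) to 0.01 (without control mouse 1), so that its direction turned. For *Tpx2* the spot of control mouse 1 was an outlier and the test used 7 arrays, and the deposited ratios gave -0.36 in place of -0.16. In the Cy5 channel alone *Kif11* turned to 0.09, *Bub1b* to 0.03 and *Ccnb1* to 0.02, and with the scanner's own ratio *Kif11* was at 0.27 and *Bub1b* at 0.03. *Plk1*, a kinase that acts from centrosome maturation to cytokinesis, was the 1 mitotic gene with a higher mean in BaP mice. Its log2 ratios were -2.35, -2.94, -2.57 and -2.83 in control mice and -3.15, -2.33, -2.13 and -2.59 in BaP mice. BaP mouse 1 was the lowest of all 8 mice and BaP mouse 3 the highest, and the log2 fold change was 0.12 (SE 0.21, limma adjusted p = 0.883), or -0.02 without BaP mouse 3.

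Among S phase genes, *Mcm6* had the largest difference, and the others lay between -0.17 and 0.05. The MCM genes encode the 6 subunits of the helicase that unwinds DNA at replication forks. *Mcm2* had log2 ratios of -4.14, -4.37, -4.20 and -4.04 in control mice and of -4.35, -4.22, -4.20 and -4.32 in BaP mice. These ranges overlapped, with a log2 fold change of -0.09 (SE 0.09), which became 0.05 in the Cy5 channel alone. With median centring it became 0.16, where the median of all tested genes was 0.21. *Mcm3*, *Mcm4*, *Mcm5* and *Mcm7* had log2 fold changes of -0.14, -0.06, -0.09 and -0.01, with standard errors of 0.09 to 0.11. Leaving out 1 mouse moved each of them by more than 1.5 times. *Mcm3* ran from -0.24 (without BaP mouse 2) to -0.09 (without BaP mouse 3), *Mcm4* from -0.13 (without BaP mouse 3) to 0.00 (without BaP mouse 1) and *Mcm5* from -0.13 to -0.04 (without control mouse 4). *Mcm7* had no steady direction, from -0.07 (without BaP mouse 3) to 0.03 (without control mouse 2 or BaP mouse 4), and *Mcm2* ran from -0.15 (without control mouse 2) to -0.04 (without control mouse 4).

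*Mcm6* differed from the other MCM genes in direction, with log2 ratios of -3.55, -3.68, -4.28 and -4.26 in control mice and of -3.68, -3.35, -3.35 and -3.26 in BaP mice. Control mice 3 and 4 were well below all other mice, while control mice 1 and 2 lay close to the BaP mice, and the groups overlapped. The log2 fold change was 0.53 (SE 0.18, limma adjusted p = 0.50, exact permutation p = 0.0571, n = 4 per group), a 1.45-fold higher ratio. In the 4 arrays with undisputed labels it was 0.10, in the 4 arrays with conflicting labels 0.97, and with the source names -0.43. It was past 1.5-fold without control mouse 1 (0.67) and without control mouse 2 or BaP mouse 1 (0.62). With median centring it was 0.76, but the median of all tested genes was 0.21 there. Relative to that median it was 0.55, below the 0.585 that is 1.5-fold. With median centring *Mcm6* was higher without overlap, as were 10% of all tested genes, and with the source names the 1 gene without overlap was *Mcm4*, lower at -0.21, against 0.895% of tested genes. The part of the array labels in this difference was not tested.

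Of the genes upstream of replication, *E2f1*, which encodes an activating E2F factor, had a log2 fold change of -0.17 (SE 0.13), which became -0.30 without BaP mouse 4 and -0.11 without BaP mouse 2. *Ccne1* had log2 ratios of -0.66, -0.48, -0.57 and -0.49 in control mice and of -0.53, -0.68, -0.64 and -0.67 in BaP mice, which overlapped, with a log2 fold change of -0.08 (SE 0.08). A dimmer probe of *Ccne1* gave 0.08 (SE 0.12), opposite in sign. Of the genes of nucleotide synthesis, *Rrm2* had a log2 fold change of -0.14 (SE 0.13), which became -0.02 without control mouse 1 and -0.22 without control mouse 2. *Tyms* had log2 ratios of -0.75, -1.17, -0.74 and -1.18 in control mice and of -0.91, -0.94, -0.77 and -1.01 in BaP mice. All 4 BaP mice lay inside the control range, and the log2 fold change was 0.05 (SE 0.12).

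**Figure D3:**
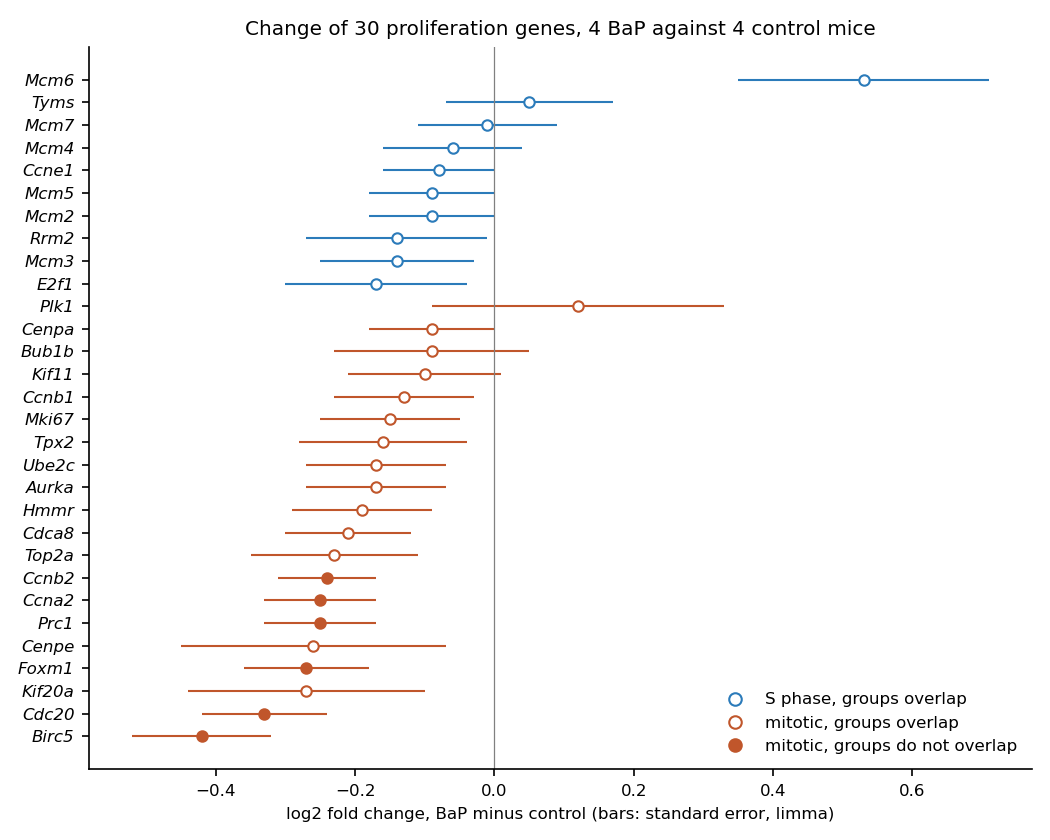
Log2 fold change, BaP minus control (horizontal axis), of the 30 tested proliferation genes, with bars of 1 standard error from limma, S phase genes in blue and mitotic genes in orange, and filled points for the 6 genes whose groups did not overlap. All but 1 of the 20 mitotic genes lie left of 0, down to -0.42 for *Birc5*, and *Mcm6* stands apart at 0.53. With arrays centred on the median without loess 4 of the 30 genes lie left of 0, against 11.9% of all tested genes. There 19 of the 20 mitotic genes lie below the median of all tested genes, 0.21.

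The means over genes in each mouse show which mice carry the difference. For the 19 mitotic genes measured on all 8 arrays, the mean log2 difference from the control mean was 0.06, -0.01, -0.12 and 0.07 in control mice 1 to 4 and -0.25, -0.09, -0.27 and -0.16 in BaP mice 1 to 4. The groups overlapped through control mouse 3 and BaP mouse 2. For the 10 S phase genes, the control mice ran from -0.05 to 0.11 and BaP mouse 1, at -0.11, was the only BaP mouse outside that range. In the Cy5 channel alone, without the reference, the mitotic means were -0.07, 0.02, -0.02 and 0.07 in control mice and -0.07, -0.07, -0.17 and -0.14 in BaP mice. There the groups met at control mouse 1.

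**Figure D4:**
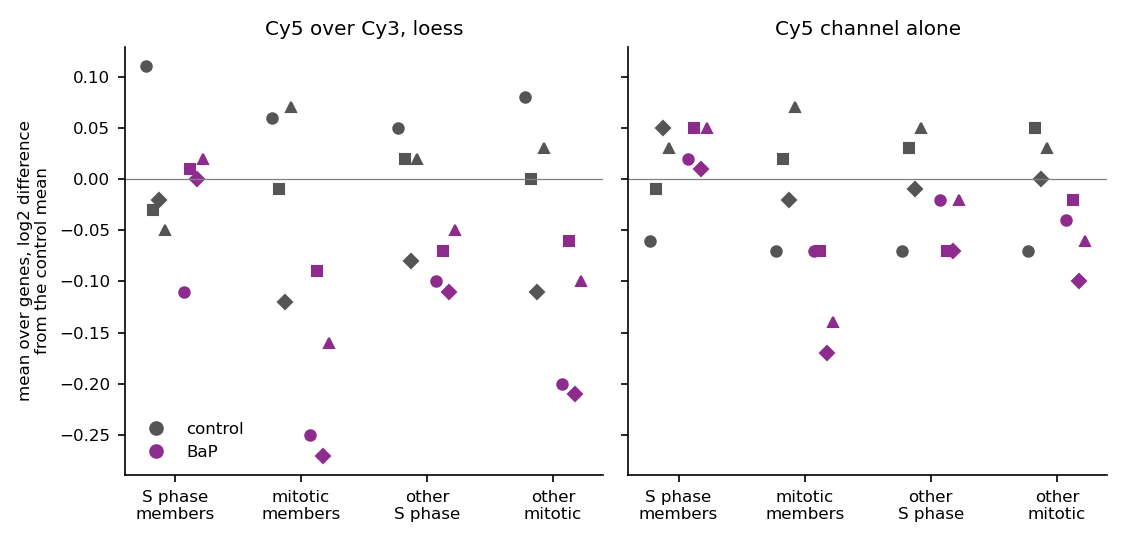
Mean over genes of the log2 difference from the control mean (vertical axis) in each control mouse (grey) and BaP mouse (purple), for the listed S phase and mitotic genes and for other genes of both classes, from the loess-normalized ratio (left) and from the Cy5 channel alone (right), with circles, squares, diamonds and triangles for mice 1 to 4. For mitotic genes BaP mice 1, 3 and 4 lie below all control mice on the left, and BaP mice 3 and 4 do so on the right. The direction of the median over these genes turned with the source names (0.02) and with median centring (0.07). With median centring the median of all tested genes was 0.21, and the mitotic median relative to it was -0.14.

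Arrays in each set of positions on the slide held 2 mice of each group. In the first set, which holds the 4 arrays with undisputed labels, the median log2 fold change of the mitotic genes was -0.17, with 20 of 20 lower, and in the second set it was -0.22, with 18 of 20 lower. For S phase genes the medians were -0.04 and -0.07. In the first set alone 15 of the 30 genes did not overlap, all lower, against 19.8% of tested genes in that direction for 2 mice against 2.

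Low ratios to the reference moved with the result. Of the 20 mitotic genes, 9 had a control log2 ratio at or below -4, with a median log2 fold change of -0.25 and 9 of 9 lower. Among 84 tested genes on no cell cycle list with such a ratio, the median was -0.11 and 77.4% were lower. For control ratios above -4 and up to -3, the medians were -0.17 for 9 mitotic genes and -0.08 for 248 others, of which 66.9% were lower. In the Cy5 channel alone, the same 9 and 84 genes had medians of -0.11 and -0.02, with 8 of 9 and 53.6% lower. The part of the reference channel in the log2 ratios of the mitotic genes was not tested beyond these values. Of the 6 genes named above, *Prc1* and *Cdc20* did not overlap in Cy5 alone either, with log2 fold changes of -0.22 and -0.23, against 1.69% of tested genes lower without overlap there, and *Mcm6* was higher without overlap, at 0.53, against 3.29%.

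Further genes of the same classes were counted from lists that share no gene with the 36. Of 58 other mitotic genes, 39 were tested, 36 had a log2 fold change below 0 and 3 above it, with a median of -0.14, which lay between -0.17 and -0.10 when each mouse was left out but was 0.09 with median centring, -0.04 in the Cy5 channel alone and -0.02 with the source names. Groups of mice did not overlap for 2 of the 39, against 2.56% of all tested genes in the lower direction. These were *Kif22*, a chromosome-bound kinesin, at -0.33 (SE 0.09, limma adjusted p = 0.490), and *Cdca5*, which encodes the cohesin protector sororin, at -0.27 (SE 0.10, limma adjusted p = 0.526). Of 37 other S phase genes, 32 were tested, 24 were below 0 and 8 above, with a median of -0.08, which was 0.18 with median centring, -0.04 in Cy5 alone and -0.03 with the source names. With median centring the median of all tested genes was 0.21. Relative to it, the mean over genes, BaP minus control, was -0.09 for the other mitotic genes and -0.02 for the other S phase genes. *Mcm10*, *Rfc3* and *Pole*, a replication initiation factor, a subunit of the clamp loader and a replicative polymerase, were lower without overlap, 3 of the 32 against the same 2.56%, with log2 fold changes of -0.30, -0.26 and -0.31. *Pcna*, the sliding clamp of replication, had a log2 fold change of -0.01 (SE 0.08). In limma 0 genes of either list passed the adjusted p, and at an unadjusted p under 0.05 there were 5 of the 39 and 4 of the 32, against 9.44% of all tested genes.

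Genes that act in G1 did not lean one way. Of 25 such genes, 23 were tested, 10 below 0 and 13 above, from -0.49 to 0.65, with a median of 0.01 and 4 at an unadjusted p under 0.05, against 9.44% of all tested genes. The 1 gene past 1.5-fold was *Cdkn1c*, which encodes the inhibitor p57 and is named after its value was seen, at 0.65 (SE 0.51, limma adjusted p = 0.717), with overlap. *Ccnd1* and *Ccnd2*, which encode D cyclins, had log2 fold changes of -0.29 (SE 0.11, limma adjusted p = 0.533) and -0.03 (SE 0.11). *Cdkn1a*, which encodes the p53-induced inhibitor p21, had one of -0.28 (SE 0.12, limma adjusted p = 0.551), and its groups overlapped. *Cdkn2a*, an inhibitor locus of cell cycle arrest, was lower without overlap at -0.49 (SE 0.13, limma adjusted p = 0.478), and *Ccng1*, a p53 target, was higher without overlap at 0.18 (SE 0.08, limma adjusted p = 0.582). They are 1 of 23 genes in each direction, against 2.56% lower and 2.72% higher among all tested genes.

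Markers of the cell types that divide in the hippocampus overlapped between the groups when averaged in each mouse. For 13 of 14 tested progenitor and immature neuron markers, 9 were lower and 4 higher, from -0.66 to 0.36, with a median of -0.09. At an unadjusted limma p under 0.05 there were 2 of the 13, against 9.44% of all tested genes. These were *Hes5*, a Notch target, at -0.66 (SE 0.22, limma adjusted p = 0.50) and *Fabp7*, of radial glia, at -0.42 (SE 0.16, limma adjusted p = 0.527), both named after their values were seen and both with overlap. The mean of the 13 markers ran from -0.11 to 0.08 in control mice and from -0.27 to 0.05 in BaP mice. *Nes*, of neural stem cells, and *Dcx*, of immature neurons, had log2 fold changes of 0.03 (SE 0.12) and -0.02 (SE 0.20), and *Eomes*, of intermediate progenitors, was too dim to test. *Pdgfra*, of oligodendrocyte precursors, had a log2 fold change of 0.08 (SE 0.10), within a list with 4 lower and 5 higher of 9. *Gpr17*, chosen after its value was seen, was the 1 gene of the 9 without overlap, against 2.56% of all tested genes, lower at -0.31 (SE 0.10, limma adjusted p = 0.498). *Csf1r*, of microglia, had one of 0.04 (SE 0.12), within a list with 5 lower and 6 higher of 11. Endothelial markers were 5 lower and 7 higher of 12, although *Cldn5*, a tight junction gene, was lower without overlap, 1 of the 12 against 2.56%, at -0.57 (SE 0.08, limma adjusted p = 0.138). At an unadjusted limma p under 0.05 there were 2 of the 9 oligodendrocyte precursor, 2 of the 11 microglia and 4 of the 12 endothelial markers, against 9.44%.

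Erythroid markers moved with the groups, and choroid plexus markers varied between mice. Of 7 tested erythroid markers of 9 listed, 6 were lower, 5 of them without overlap, against 2.56% of all tested genes, and their mean ran from -0.11 to 0.06 in control mice and from -0.90 to -0.62 in BaP mice. Grouped by title, their median was -0.90 in the 4 arrays with undisputed labels (7 of 7 lower). In the 4 arrays with conflicting labels it was -0.69 (6 of 7 lower). Which label of these 4 arrays is right was not tested. The beta-globin *Hbb-bs* was at -1.90 on this log2 scale (SE 0.14, limma adjusted p = 0.00234), and the other marker past an adjusted p of 0.05 was *Alas2*, an enzyme of heme synthesis named after its value was seen, at -1.05 (SE 0.12, limma adjusted p = 0.0444). They are 2 of the 7, against 0.0199% of all tested genes at this adjusted p and 1.5-fold. Choroid plexus markers were higher in 12 of 12, against 7539 of the 15090 tested genes, with a median log2 fold change of 0.84 and a range of 0.04 to 1.37. Their means ran from -0.92 to 0.95 in control mice and from -1.45 to 2.08 in BaP mice, and *Ttr*, the lowest of them, was at 0.04 (SE 0.36). Hippocampal neuron markers were 4 lower and 8 higher of 12, from -0.64 to 1.02, with a median of 0.10. The 2 past 1.5-fold, both named after their values were seen, were *Dsp*, which encodes desmoplakin, at 1.02 (SE 0.35, limma adjusted p = 0.510) and *Grik4*, a kainate receptor subunit, at -0.64 (SE 0.13, limma adjusted p = 0.368). *Grik4* was the 1 of the 12 that was lower without overlap, against 2.56% of all tested genes, over 3 control and 4 BaP arrays. Their mean ran from -0.08 to 0.05 in control mice and from -0.02 to 0.38 in BaP mice, and *Camk2a* had a log2 fold change of -0.10 (SE 0.13). The part of these cell types in the differences of the proliferation genes was not tested.

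**Figure D5:**
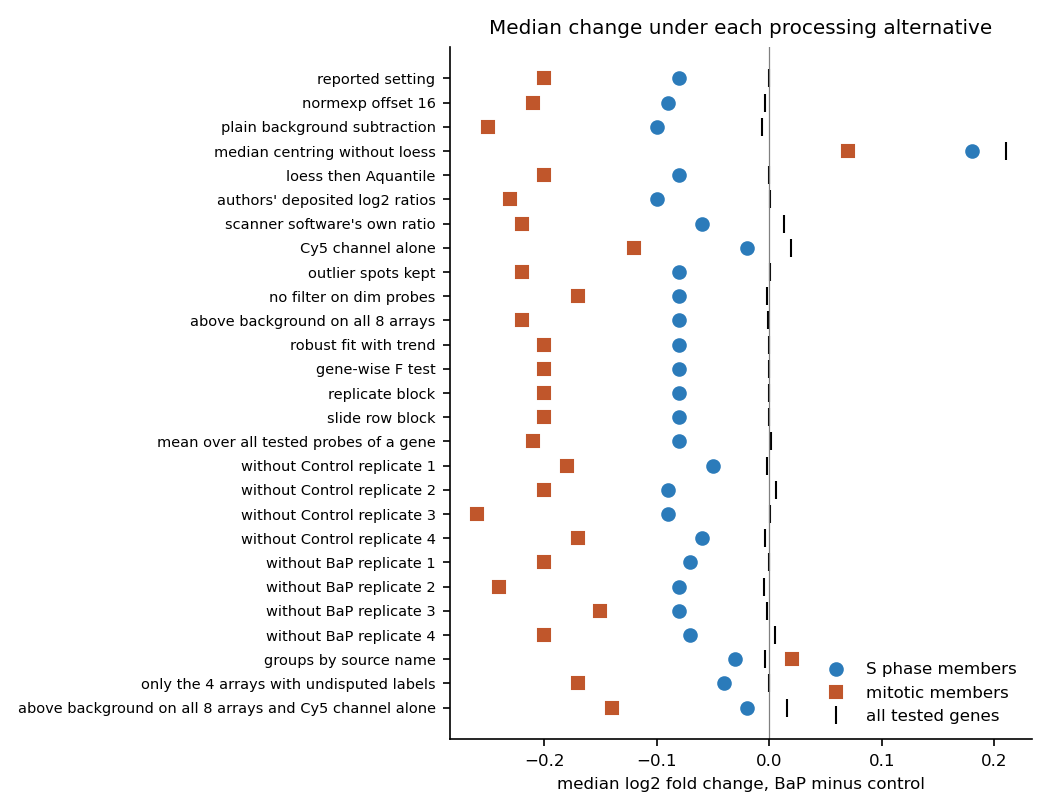
Median log2 fold change, BaP minus control (horizontal axis), of the tested S phase genes (circles), the tested mitotic genes (squares) and all tested genes (black ticks) under each processing alternative (rows). The mitotic median lies left of the S phase median in every row but the grouping by source name, and both lie right of 0 with median centring, where the median of all genes is 0.21.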

How the data were processed

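Hippocampal RNA of 8 mice was hybridized to Agilent 8x60 K arrays. The authors deposited the scanner intensity and background of each spot in both channels, marks for saturated, dim and outlier spots, the software's log10 ratio of Cy5 over Cy3, and a table of log2 ratios that the methods describe as LOWESS-normalized. The deposited log2 ratios correlated at 0.998 to 0.999 with those computed here.

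Spot medians were background-corrected by normexp (offset 50, limma 3.58.1, R 4.3.3). Control spots were then dropped, outlier spots set to missing, ratios normalized by loess within arrays, and spots averaged per probe. Tested probes (32600 of 55681) were those that at least 4 of 8 arrays showed well above background in Cy5. They were compared by lmFit and eBayes with Benjamini-Hochberg adjustment, and called at an adjusted p of 0.05 and 1.5-fold. Of 28685 probes with a RefSeq accession, 27235 (94.9%) were named through a table of GRCm38.p6, and the brightest tested probe stood for a gene. Exact permutation tests were 2-sided. Summaries used Python 3.11.15 and pandas 2.3.3. The fit was tested on simulated data.

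The members and lists were chosen with earlier results of these data known, and *Ccna2*, which acts in S phase and G2, was placed with the mitotic genes. Every listed gene is named. Values per mouse are given for genes without overlap, the largest differences in each direction, and *Mki67*, *Top2a*, *Cdk1*, *Mcm2*, *Mcm6* and *Ccne1*. From other cell cycle lists, genes without overlap and *Pcna*, *Cdkn1a*, *Ccnd1* and *Ccnd2* are named, and from cell type lists defining markers. Beyond these, *Cdkn1c*, *Hes5*, *Fabp7*, *Gpr17*, *Alas2*, *Dsp* and *Grik4* were added after their values were seen. Alternatives covered background correction, normalization, the deposited ratios, the Cy5 channel alone, filters, tests, blocks, probes, leaving out single mice, and the labels in conflict. The few arrays, and for dim probes the low signal over background, limit the precision.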

Additional observations from a re-analysis of the deposited data

Results flagged for a closer look

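In 85 groups of 4 mice examined, 2 had a mouse far from the other 3, where chance gives about 4.2 by Dixon's gap criterion. The *Cdc20* ratio of control mouse 1 was -4.30 on the log2 scale, while the other control mice lay between -4.61 and -4.56, a gap of 0.836 of the range. The mean of the S phase genes in BaP mouse 1 was -0.11, while the other BaP mice reached up to 0.02, a gap of 0.832 of the range.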

How the results depend on the processing

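No listed gene passed the adjusted p under any alternative with a test (the mean over all probes of a gene has none). With median centring without loess, 4 of 30 genes were lower in BaP mice and 1 (*Mcm6*, higher) was without overlap, the medians were 0.18 for S phase and 0.07 for mitotic genes, and the log2 fold changes turned to 0.13 for *Mki67*, 0.03 for *Top2a*, *Ccna2* and *Cenpe*, 0.04 for *Prc1* and *Ccnb2*, 0.16 for *Mcm2*, 0.19 for *Ccne1*, 0.14 for *Rrm2* and 0.07 for *Cdca8*, where the median of all genes was 0.21. In the Cy5 channel alone, 3 genes were without overlap, the medians were -0.02 and -0.12, and the log2 fold changes turned to 0.05 for *Mcm2*, 0.01 for *Mcm7*, 0.02 for *Ccnb1*, 0.03 for *Bub1b* and 0.09 for *Kif11*. With Cy5 alone and the filter on all 8 arrays, an alternative added after seeing the data, 3 genes were without overlap, the medians were -0.02 and -0.14 and *Mcm2* was at 0.05. With the source names, 15 genes were lower, 1 was without overlap, the mitotic median was 0.02, and the log2 fold changes were 0.15 for *Top2a*, 0.10 for *Birc5*, 0.07 for *Ccna2*, 0.02 for *Foxm1* and *Cdca8*, 0.05 for *Mcm2* and *Ccne1*, 0.17 for *Cenpe*, -0.43 for *Mcm6*, -0.02 for *Tyms* and -0.22 for *Plk1*. With the 4 undisputed arrays, 15 genes were without overlap and *Plk1* was at -0.09. With each mouse left out, *Tyms* ran from -0.02 (without control mouse 2 or 4) to 0.13 and *Plk1* from -0.02 (without BaP mouse 3) to 0.32. *Mcm7* (0.01 without control mouse 1 or BaP mouse 1, 0.03 without control mouse 2 or BaP mouse 4) and *Bub1b* (0.01 without control mouse 1) also turned sign. *Mcm4* was at 0.00 and no longer lower without BaP mouse 1, where 6 of the 10 S phase genes were lower. The cause was not tested. Over all probes, 3 calls became 0 with plain subtraction, the scanner's own ratio, the F test, the source names or the undisputed arrays, 6 in Cy5 alone and 5 without a filter. With each mouse left out, there were 1 to 3 calls (1 without control mouse 1, 3 or 4 or BaP mouse 2), 25 to 28 genes lower and 6 to 9 without overlap (against 3.35% to 5.35% of all tested genes lower without overlap at these group sizes), and the medians ran from -0.09 to -0.05 for S phase and from -0.26 to -0.15 for mitotic genes. Same-numbered mice deviated together at correlations of -0.354 to 0.031, so the numbers do not pair them, and with the replicate number as a block 27 genes were lower, 6 without overlap, the medians -0.08 and -0.20, and 3 probes were called.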
